A study of Mus musculus with 5 samples.

Results

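CXC chemokines are small secreted proteins that guide leukocytes. The 10 genes described here are Cxcl1, Cxcl2, Cxcl3, Cxcl5, Cxcl9, Cxcl10, Cxcl12, Cxcl14, Cxcl15 and Cxcl16. They were taken by symbol from the 31053 genes of the count matrices. A single-cell RNA-seq experiment on 15 mammary tumors of MMTV-PyMT mice was read for their level in each cell class and for the difference between 9 tumors treated with B20-4.1.1 and 6 treated with an isotype control.

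All mice were of the strain FVB/N-Tg (MMTV-PyVT)634Mul/J, whose transgene puts polyoma middle T under the MMTV promoter, active in mammary epithelium, so that both groups carried it. Treatment began at 7 weeks of age. The treated group received B20-4.1.1, an antibody that blocks VEGFA, and the controls received mouse IgG2a of clone C1.18.4, both intraperitoneally at 5 mg/kg, 2 times per week for 6 weeks. The labels name 1 mouse for each tumor, whose DAPI-negative cells were tagged with lipid-anchored oligos, and 3 tumors of 1 treatment were pooled per 3′ library, which gave 2 isotype and 3 B20-4.1.1 pools. Pool and treatment therefore cannot be told apart, except by the spread among pools. The study also split treated tumors by hypoxia, but the sample labels do not carry that class, and it was not used here.

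Of 30340 deposited cells, 19533 with 2500 to 27500 UMIs and at most 20% mitochondrial UMIs were kept, 10630 from isotype and 8903 from B20-4.1.1 tumors. A UMI is 1 tagged transcript molecule. The tumors held between 4014509 and 23726246 gene UMIs, and the median of kept cells ran from 4043 to 10591. The first isotype pool stood apart, with a median of 2321 UMIs over its deposited cells against 4120.5 to 7129 in the others, and 3 B20-4.1.1 tumors were more than 50% T-like cells. No barcode was shared within a pool and 94 were shared between pools. The kept cells formed 31 clusters without use of CXC chemokines or their receptors, and a cluster was named from markers of its class: epithelial-like clusters had 7 to 9 of 11 epithelial markers, macrophage-like ones 8 or 9 of 9, and T-like ones 8 of 8. The tumor compartment was the largest, with 13761 epithelial-like cells. Among leukocytes there were 1176 macrophage-like, 64 monocyte-like, 126 dendritic-like, 105 neutrophil-like, 2909 T-like and 187 B-like cells, and the stroma held 64 fibroblast-like and 20 endothelial-like cells. The remaining 1121 cells, 6.51% of isotype and 4.82% of B20-4.1.1 cells, sat in 7 clusters that were left unnamed, and the cut that kept them out was set with the data in view.

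The family divides by sequence and by receptor. Cxcl1, Cxcl2, Cxcl3 and Cxcl5 attract neutrophils through Cxcr2, and Cxcl15 belongs to the same neutrophil-attracting group. Cxcl9 and Cxcl10 are induced by interferon and attract activated T and NK cells through Cxcr3. Cxcl12 binds Cxcr4 and the scavenging receptor Ackr3 and is a classical product of stromal cells, Cxcl14 is made in many epithelia and in stroma, and Cxcl16 is a membrane-anchored ligand of Cxcr6 that metalloproteases such as Adam10 and Adam17 can release.

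On mouse GRCm38, Cxcl5, Cxcl3, Cxcl15, Cxcl1 and Cxcl2 lie in this order on the plus strand of chromosome 5 within 146579 bases, from chr5:90759360-90761624 for Cxcl5 to chr5:90903871-90905938 for Cxcl2. Cxcl9 at chr5:92321347-92328079 and Cxcl10 at chr5:92346638-92348889 are neighbours on the minus strand, within 27543 bases. Cxcl12 is at chr6:117168535-117181367 on the plus strand, and Cxcl16 at chr11:70453983-70459984 and Cxcl14 at chr13:56288643-56296551 are on minus strands.

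The promoters are shown because neighbours on chromosome 5 share runs of letters close to their start sites. RefSeq windows on GRCm38.p6, from 250 bases before to 50 after each start, were held for 8 of the 10 members. Cxcl5 and Cxcl16 had none. The sets compared were Cxcl1, Cxcl2 and Cxcl3, and Cxcl9 and Cxcl10. Cxcl15, which lies between Cxcl3 and Cxcl1, was left out of the first set. For each set the longest run of letters common to the shown stretches, on either strand, was read from the sequences. Its share among all 32851 promoters of the same length was counted on both strands. Cxcl1, Cxcl2 and Cxcl3 share GGGAATTTCCC, 11 letters with the form of an NF-kB site, which begins 71, 97 and 73 bases before their starts. It was in 14 promoters (0.0426%), and no other member with a window held it. In the plus-strand stretches below, capitals mark it.
Cxcl1, chr5:90891135-90891244: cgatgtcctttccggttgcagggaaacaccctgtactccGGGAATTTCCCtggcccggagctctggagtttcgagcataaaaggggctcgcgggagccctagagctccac
Cxcl2, chr5:90903789-90903898: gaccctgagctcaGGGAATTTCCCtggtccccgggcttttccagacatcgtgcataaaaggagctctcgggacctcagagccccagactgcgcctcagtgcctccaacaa
Cxcl3, chr5:90785991-90786100: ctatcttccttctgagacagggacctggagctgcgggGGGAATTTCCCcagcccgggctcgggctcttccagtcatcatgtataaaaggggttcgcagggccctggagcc

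Cxcl9 and Cxcl10 share another run of 11 letters, CAGCCAATCAG, which holds a CCAAT box and begins 68 and 57 bases before their starts. It was in 260 promoters (0.7915%), and no other member with a window held it. Both genes are on the minus strand and are printed 5′ to 3′ along it, with the run in capitals.
Cxcl9, chr5:92328080-92328229: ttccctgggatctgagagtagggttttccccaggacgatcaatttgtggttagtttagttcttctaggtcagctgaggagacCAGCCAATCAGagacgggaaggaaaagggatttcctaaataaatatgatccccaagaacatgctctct
Cxcl10, chr5:92348890-92349109: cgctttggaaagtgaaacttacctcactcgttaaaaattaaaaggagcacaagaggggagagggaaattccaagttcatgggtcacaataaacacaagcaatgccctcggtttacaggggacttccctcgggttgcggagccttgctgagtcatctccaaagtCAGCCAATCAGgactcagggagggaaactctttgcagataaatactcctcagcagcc
These runs were chosen for being shared and describe letters in the windows, not binding.

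Detection differed widely among the 10 genes. Cxcl2 gave 26831 UMIs in 1998 cells and Cxcl16 10589 UMIs in 3970 cells, the latter 20.3% of all cells. Cxcl1 gave 7337 UMIs, Cxcl10 2537, Cxcl14 1968 and Cxcl12 896. Cxcl15, Cxcl9, Cxcl3 and Cxcl5 had 350, 247, 241 and 115 UMIs. The rarer genes came from very few cells: the 10 richest cells held 88.0% of Cxcl3 and 78.1% of Cxcl9 UMIs, against 6.81% for Cxcl2. Levels below are UMIs per 10000 gene UMIs of a class or tumor, intervals are exact binomial 95% intervals that cover counting error only, and shares of cells are also given after every cell was thinned to 2500 UMIs. Where no cell held a gene, the limit given is 3 counts of the cells looked at; it covers counting error only and limits cells with a UMI, not cells that express the gene. Levels across classes and clusters are a description, with no test.

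**Figure D1:**
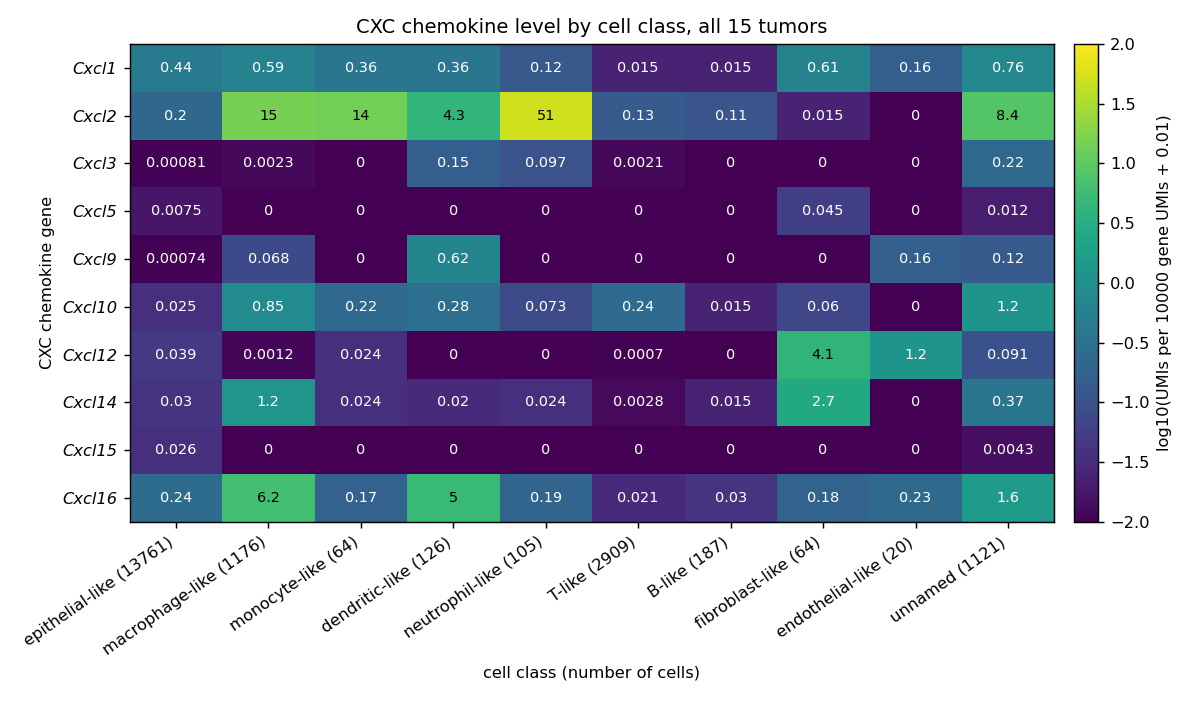
Level of each CXC chemokine in each cell class, all tumors together, as UMIs per 10000 gene UMIs on a color scale that is logarithmic, with the value written in each cell. Cxcl2 was highest in neutrophil-like cells, Cxcl16 in macrophage-like and dendritic-like cells, and Cxcl12 and Cxcl14 in fibroblast-like cells.

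The neutrophil attractants had different sources. In named classes Cxcl2 was myeloid, at 50.9 UMIs per 10000 in neutrophil-like, 15.4 in macrophage-like, 13.9 in monocyte-like and 4.25 in dendritic-like cells. It was found in 73.3% of 105 neutrophil-like cells (interval 63.8 to 81.5%) and 48.6% of 1176 macrophage-like cells (45.7 to 51.5%). Those shares were 72.4% and 42.9% at matched depth. A Cxcl2-positive macrophage-like cell held 22.9 Cxcl2 UMIs on average and a positive neutrophil-like cell 27.2, and the richest cell, macrophage-like, held 256. Of the neutrophil-like cells, 18, 25 and 21 came from the 3 tumors of the first isotype pool. An unnamed cluster led by S100a9 and S100a8 also had Cxcl2 among its 10 leading genes. That cluster had 363 cells, 308 of them isotype, with both epithelial and macrophage markers.

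Epithelial-like cells had Cxcl2 at 0.203 UMIs per 10000. Their share of positive cells, 5.62% at a median of 8732 UMIs, fell to 2.38% when thinned, beside 1.86% of T-like and 2.14% of B-like cells, whose median depths were 4149 and 3278 UMIs. At matched depth the epithelial share was thus close to that of lymphocytes and was not read as expression across the class. A minority of epithelial-like cells held many copies, up to 101 UMIs in 1 cell.

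Cxcl1, by contrast, was mostly an epithelial transcript, with 81.9% of its UMIs in epithelial-like cells. Its level was 0.445 UMIs per 10000 there, 0.594 in macrophage-like and 0.614 in fibroblast-like cells, so that the share reflects the number of epithelial-like cells. It was found in 11.5% of epithelial-like cells (11.0 to 12.1%), 9.86% of macrophage-like cells and, as background, 0.722% of T-like cells. The thinned shares were 5.62, 6.38 and 0.378%. Within the 12 tumors that held enough of both classes, Cxcl1 was higher in macrophage-like cells in 7 and in epithelial-like cells in 5, whereas Cxcl2 was higher in macrophage-like cells in 12 of 12.

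Cxcl1 was uneven among epithelial-like clusters. Over cells of both groups together it was highest, among the named ones, in the cluster led by Fosb, Egr1 and Jun, immediate-early transcription factors, at 1.03 UMIs per 10000 with 29.1% of cells positive. The cluster led by Wap, a whey protein, had 0.803 and the cluster led by Aldh1a3 and Cldn4 had 0.717, while the cluster led by Car12 and Col9a1 had 0.0997. The unnamed cluster led by Col4a1 and Col4a2 had the highest level of any, 2.10, but 79 of its 95 UMIs were in 1 cell.

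Cxcl3, Cxcl5 and Cxcl15 were sparse. Of the Cxcl3 UMIs, 85.5% were in unnamed clusters, and in the cluster led by Retnla and Ccl6 all 58 UMIs came from 1 cell of 143. Cxcl5 had 87.8% of its UMIs in epithelial-like cells, at 0.00748 per 10000, and 0 of 1176 macrophage-like cells held any, which allows a share of up to 0.255%. Cxcl15 was almost entirely in 1 epithelial-like cluster of 116 cells led by Ptn, Areg and Tph1. That cluster held 344 of its 350 UMIs, at 2.28 per 10000 with 62.1% of cells positive. Macrophage-like cells held no Cxcl15, with the same limit of 0.255%.

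The interferon-induced pair was found in myeloid cells and in unnamed clusters. Cxcl10 stood at 0.852 UMIs per 10000 in macrophage-like, 0.243 in T-like and 0.0248 in epithelial-like cells. It was seen in 11.8% of macrophage-like cells (10.0 to 13.8%; 7.31% thinned) and 1.72% of T-like cells (1.20% thinned). The epithelial share, 0.472% at a median of 8732 UMIs, stood beside 0.535% of B-like cells, 1 of 187, at a median of 3278, and was not read as expression across the class. Of the 335 epithelial UMIs, 174 were in 1 cell.

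Among clusters, Cxcl10 was highest in 2 unnamed ones, at 5.52 UMIs per 10000 in the 29 cells led by S100a9 and Ifitm1 and 4.42 in the 225 cells led by Il1rn, Mmp12 and Rsad2. The cycling macrophage-like cluster led by Hist1h1b and Top2a followed the unnamed ones, at 1.71, against 0.283 to 1.03 in the other macrophage-like clusters. Cxcl9 was found in 9.52% of dendritic-like cells (5.02 to 16%) at 0.618 per 10000, and in 0.850% of macrophage-like cells. Its highest cluster was the dendritic-like one led by Cd207, Naaa and Xcr1, a gene of cross-presenting dendritic cells, at 0.921, ahead of 0.708 in the cluster led by Il1rn. No T-like cell of 2909 held Cxcl9, which allows a share of up to 0.103%.

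Cxcl12 and Cxcl14 had their highest class level in fibroblast-like cells. Cxcl12 was at 4.09 UMIs per 10000 in fibroblast-like cells, with 68.8% of 64 cells positive (55.9 to 79.8%; 46.9% thinned), and at 1.17 in endothelial-like cells, with 3 of 20 positive. Epithelial-like cells had 0.0386, yet as the largest class they held 58.1% of its UMIs. Their share of positive cells was 3.21% (0.974% thinned), above the 0.0850% of macrophage-like cells, the 0.0344% of T-like cells and the 0 of 187 B-like cells, which allows a share of up to 1.60%. In 12 of 12 tumors the epithelial-like level of Cxcl12 was above the macrophage-like one.

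Macrophage-like cells held 1032 of the 1968 Cxcl14 UMIs, and 1 fibroblast-like cell held 48. Cxcl14 was at 2.71 UMIs per 10000 in fibroblast-like and 1.21 in macrophage-like cells. It was found in 35.5% of macrophage-like cells (32.8 to 38.4%; 21.7% thinned) and 23.4% of fibroblast-like cells (17.2% thinned). The positive shares of T-like and B-like cells were 0.0688% and 0.535%. The macrophage-like cluster led by C1qb and C1qc, complement genes of resident-type macrophages, had 1.59 and the other macrophage-like clusters 1.01 to 1.09. Epithelial-like cells had 0.0303, with 1.07% of cells positive (0.545% thinned), and 222 of their 409 UMIs were in the cluster led by Aldh1a3 and Cldn4, at 0.136.

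Cxcl16 was a general product of macrophage-like and dendritic-like cells, at 6.20 and 5.04 UMIs per 10000. It was found in 92.5% of macrophage-like cells (90.9 to 94.0%; 74.2% thinned) and 80.2% of dendritic-like cells (61.1% thinned), against 0.997% of T-like cells. Monocyte-like cells, at 0.170, and neutrophil-like cells, at 0.194, were far lower. Its highest cluster was the dendritic-like one led by Fscn1 and Ccl22, genes of migratory dendritic cells, with 8.65 and 96.5% of 57 cells positive. The 4 macrophage-like clusters ran from 5.33 to 6.83.

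Epithelial-like cells had Cxcl16 at 0.245 UMIs per 10000, and because of their number they held 31.3% of its UMIs, beside 49.8% in macrophage-like cells. The epithelial share of positive cells was 16.8% (5.95% thinned), above 0.997% (0.584% thinned) in T-like and 1.07% in B-like cells. Of the positive epithelial-like cells, 72.6% held a single UMI. The cluster led by Aldh1a3 and Cldn4 was again the highest, at 0.779 with 46.0% of cells positive, while the other epithelial-like clusters ran from 0.0582 to 0.263.

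**Figure D2:**
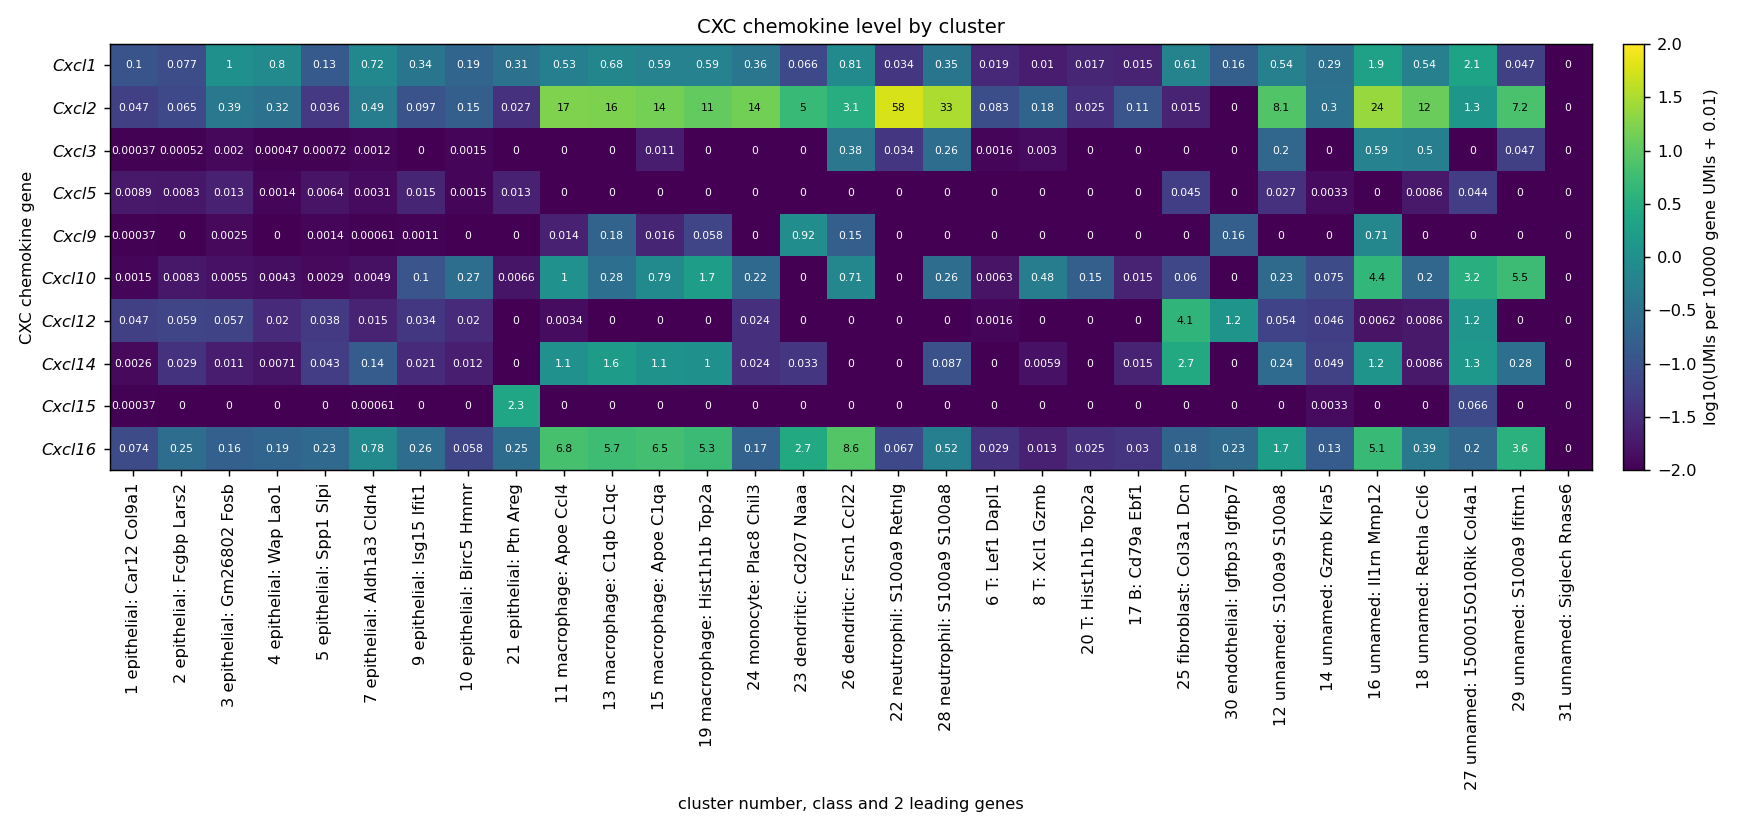
Level of each CXC chemokine in each cluster as UMIs per 10000 gene UMIs on a logarithmic color scale, with clusters grouped by class and labelled by their leading genes. Cxcl15 was concentrated in the epithelial-like cluster led by Ptn, and Cxcl10 and Cxcl3 in unnamed clusters.

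The receptors had their own places. Cxcr2 was at 9.73 UMIs per 10000 in neutrophil-like cells and at or below 0.141 in every other class. Cxcr3 and Cxcr6 were highest in T-like cells, at 0.329 and 1.12. Cxcr4 was highest in B-like cells, at 3.65, and Ackr3 in fibroblast-like cells, at 4.71, the class that also led for Cxcl12.

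Likeness of pattern was measured as Pearson's r of log2 levels over 26 clusters, which share libraries and base composition, and is given with no p. The genes most like Cxcl2 were Il1b (r = 0.965), Slc15a3 and Ccrl2, and those most like Cxcl14 were Eya4 (0.969) and Col14a1. Cxcl12 was most like Adamts12 (0.997), Cxcl16 most like Arhgap22 (0.938) and Cxcl10 most like Gnptab (0.822). The values of 0.9999 for Cxcl15 with Gm4847, Tph1 and Cldn6 rest on 1 cluster. Cxcl12 was highest in the only fibroblast-like cluster, and its 0.997 may rest largely on it. The remaining members were most like Cstb (Cxcl1, 0.847), Trim30d (Cxcl3, 0.842), Pcdhb18 (Cxcl5, 0.913) and Gpnmb (Cxcl9, 0.854). Since Cxcl5 had 115 UMIs in all and 0.1 was added to every level before logs, its value is one near the floor.

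B20-4.1.1 was then compared with the isotype control on UMIs summed per tumor and class. In epithelial-like cells Cxcl16 and Cxcl14 were higher in treated tumors, with log2 fold changes of 0.57 and 1.91. The other 4 members that passed the filter on low counts, Cxcl1, Cxcl2, Cxcl12 and Cxcl15, did not pass the test, and Cxcl3, Cxcl5, Cxcl9 and Cxcl10 had too few counts to be tested. The test was edgeR's quasi-likelihood F test with Benjamini-Hochberg adjustment over all 12306 genes tested and a threshold of 0.05. By that test 15.3% of all genes were called, 7.78% higher and 7.52% lower, beside 2 of 6 tested members, both higher. The median log2 fold change of the 6 members was 0.06 and that of all genes -0.01.

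Cxcl16 in epithelial-like cells ranged from 0.151 to 0.242 UMIs per 10000 over the 6 isotype tumors, with a median of 0.220. In the 9 B20-4.1.1 tumors it ranged from 0.240 to 0.368, with a median of 0.299. Treated tumors were higher nearly throughout, 8 of 9 above the highest control and the lowest treated tumor just under it. The means were 0.214 ± 0.033 (SD, n = 6) and 0.302 ± 0.050 (SD, n = 9). The edgeR log2 fold change was 0.57 (SE 0.12, adjusted p = 0.00742). The share of positive cells was 14.5% ± 2.2 (SD, n = 6) in isotype and 21.7% ± 4.9 (SD, n = 9) in B20-4.1.1 tumors, or 5.50% and 7.44% when thinned.

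Cxcl14 in epithelial-like cells ranged from 0.00535 to 0.0491 UMIs per 10000 in isotype tumors, with a median of 0.00987, on 7 to 52 UMIs per tumor. In B20-4.1.1 tumors it ranged from 0 to 0.110, with a median of 0.0425, on 0 to 67 UMIs. The groups overlapped: 8 of 9 treated tumors were above the control mean but 3 of 9 above the highest control, and the single tumor at 0 had 82 epithelial-like cells. The means were 0.0155 ± 0.0166 (SD, n = 6) and 0.0521 ± 0.0346 (SD, n = 9). The edgeR log2 fold change was 1.91 (SE 0.47, adjusted p = 0.0134).

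Both calls were lost when the pool was taken into account. With pool as a random block in limma-voom, the adjusted p was 0.192 for Cxcl16 and 0.211 for Cxcl14, and with counts summed per pool the edgeR values were 0.375 and 0.333. The log2 fold changes then were 0.62 and 0.63 for Cxcl16 and 2.01 and 1.83 for Cxcl14. The pool means are given as a description, and how often they separate over all genes was not counted. For Cxcl16 they were 0.224 and 0.203 UMIs per 10000 in isotype pools against 0.272, 0.337 and 0.297 in B20-4.1.1 pools. For Cxcl14 they were 0.0227 and 0.00836 against 0.0369, 0.0486 and 0.0709. Single pools also decided calls: without the first isotype pool Cxcl16 had a log2 fold change of 0.54 and an adjusted p of 0.0832. Cxcl14 was at 1.43 (adjusted p = 0.0551) without the other isotype pool and at 1.58 (adjusted p = 0.0700) without the third B20-4.1.1 pool. Thinning all cells to 2500 UMIs put Cxcl16 at 0.51 (adjusted p = 0.0700), and adding unnamed clusters to their best class put Cxcl14 at 1.21 (adjusted p = 0.0576, all edgeR).

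**Figure D3:**
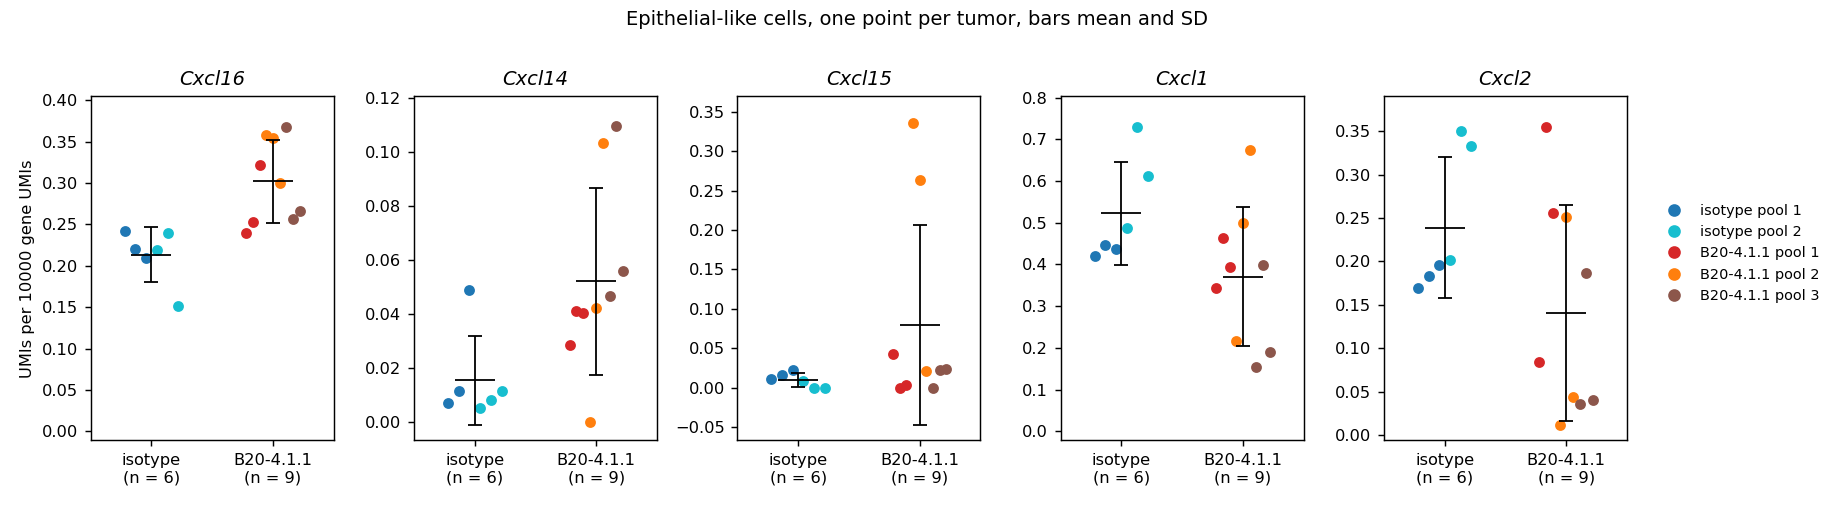
UMIs per 10000 gene UMIs in epithelial-like cells for Cxcl16, Cxcl14, Cxcl15, Cxcl1 and Cxcl2, 1 point per tumor, with bars for the group mean and SD (6 isotype, 9 B20-4.1.1 tumors). The groups overlap for every gene shown, and for Cxcl16, 8 of 9 treated tumors lie above the highest control.

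Different clusters held most epithelial-like cells of the groups: those led by Car12, Fcgbp and Fosb in isotype tumors, and those led by Spp1, Wap and Aldh1a3 in B20-4.1.1 tumors. In tumors with at least 20 cells of the Aldh1a3 cluster, its mean share of epithelial-like cells differed. The share was 7.81% (5.05 to 13.6%, n = 6) in isotype and 16.5% (12.6 to 24.2%, n = 8) in treated tumors. Within the cluster led by Aldh1a3 and Cldn4, Cxcl16 was 0.792 ± 0.203 (SD, n = 6) UMIs per 10000 in isotype and 0.863 ± 0.173 (SD, n = 8) in treated tumors, a difference smaller than the spread. Over the 9 epithelial-like clusters the pooled Cxcl16 level was higher in treated cells in 6 and lower in 3. Cxcl14 in the Aldh1a3 cluster was 0.132 ± 0.246 (SD, n = 6), with 1 isotype tumor at 0.633 and a median of 0.0306, against 0.176 ± 0.088 (SD, n = 8) and a median of 0.161 in treated tumors. Across clusters Cxcl14 was higher in treated cells in 6 of 9 and lower in 2. For both genes the clusters shared the same tumors, and such directions were not counted over all genes. The part of the cluster make-up in the class-wide values was not tested.

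Markers of the class and of other cells were read in the same epithelial-like sums. The 11 epithelial markers summed to 60.2 to 80.1 UMIs per 10000 in isotype and 80.3 to 120 in treated tumors. Of the 10 tested, 9 were called higher. The 9 macrophage markers summed to 1.56 to 2.53 UMIs per 10000 in isotype and 1.07 to 2.50 in treated tumors, and 1 of the 7 tested passed, higher. The 7 fibroblast markers summed to 0.0245 to 0.0616 and 0.0283 to 0.149, with 0 of 2 tested called. The 8 T cell markers summed to 0.0639 to 0.173 in isotype and 0.125 to 1.04 in treated tumors, with 6 of 7 tested called higher. In T-like cells the Cxcl16 and Cxcl14 levels were 0.0208 and 0.00281. Without the 3 treated tumors rich in T-like cells the adjusted p was 0.0298 for Cxcl16 and 0.0239 for Cxcl14 (edgeR). The part of other cells' transcripts in the epithelial-like Cxcl16 and Cxcl14 values was not tested.

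Cxcl15 had the largest fitted change in epithelial-like cells and did not pass. Isotype tumors ran from 0 to 0.0227 UMIs per 10000 with a median of 0.00953, and B20-4.1.1 tumors from 0 to 0.336 with a median of 0.0229. The high values were 2 tumors of the second B20-4.1.1 pool, at 0.336 on 31 UMIs and 0.263 on 167 UMIs. The log2 fold change was 2.83 (SE 1.08, adjusted p = 0.0815, edgeR). It was 0.87 (adjusted p = 0.537) without the second B20-4.1.1 pool, 4.27 (adjusted p = 0.176) without the first isotype pool and 1.23 (adjusted p = 0.854) with pool as a random block in limma-voom. In the Ptn cluster, 1 tumor per group had at least 20 cells, with 0.521 in the isotype tumor and 4.07 in the treated one, and no test was possible.

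Cxcl1 and Cxcl2 had lower means in treated epithelial-like cells but did not pass. Cxcl1 ran from 0.419 to 0.730 UMIs per 10000 in isotype tumors (median 0.467) and from 0.155 to 0.675 in treated tumors (median 0.395). Below the control mean were 8 of 9 treated tumors, but also isotype tumors at 0.419, 0.447, 0.437 and 0.488. The Cxcl1 log2 fold change was -0.46 (SE 0.25, adjusted p = 0.221, edgeR). Cxcl2 ran from 0.169 to 0.351 and from 0.0108 to 0.355, with a log2 fold change of -0.62 (SE 0.44, adjusted p = 0.342, edgeR). With unnamed clusters added to their best class, Cxcl2 was at -0.83 (adjusted p = 0.193, edgeR). The Cxcl1 and Cxcl2 values both moved with single pools. Without the second isotype pool they were -0.06 and -0.08 (adjusted p = 0.904 and 0.930), without the first -0.77 and -1.001, and without the third B20-4.1.1 pool -0.21 and -0.29, and without the first B20-4.1.1 pool Cxcl2 was at -1.11, none of them called by edgeR. For Cxcl12 the means were 0.0501 ± 0.0264 (SD, n = 6) and 0.0311 ± 0.0158 (SD, n = 9), and its log2 fold change of -0.55 (SE 0.36) had an adjusted p of 0.305 by edgeR. That difference lay between isotype pools: the first had a mean of 0.0718 and the second 0.0285, which is within the 0.0226 to 0.0394 of the treated pools.

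In the Aldh1a3 cluster Cxcl1 was 1.10 ± 0.49 (SD, n = 6) UMIs per 10000 in isotype and 0.403 ± 0.272 (SD, n = 8) in treated tumors. In the Fosb cluster it was 1.06 ± 0.15 (SD, n = 6) and 0.940 ± 0.435 (SD, n = 7). Over all isotype cells, the clusters led by Wap and Aldh1a3 had 1.19 and 1.18, beside 1.08 in the Fosb cluster, and over all treated cells the values were 0.512, 0.402 and 0.888. These within-cluster values were not tested. Over the 9 epithelial-like clusters the pooled Cxcl1 level was lower in treated cells in 7 and the Cxcl2 level in 8. The clusters shared the same tumors, and such directions were not counted over all genes.

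In macrophage-like cells no CXC chemokine passed the test, over 6 isotype and 6 B20-4.1.1 tumors with at least 20 such cells. Cxcl16, the most widely found member there, differed least, and Cxcl14 and Cxcl10 had fitted changes in opposite directions. By the same edgeR test 0.0161% of 6204 genes were called, beside 0 of 5 tested members. At an unadjusted p under 0.05, 560 genes and 2 members, Cxcl10 and Cxcl14, would be counted, and DESeq2 called 11 genes and 0 members.

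Cxcl14 in macrophage-like cells was 0.947, 0.636, 0.868, 1.32, 0.999 and 1.54 UMIs per 10000 in the isotype tumors, in pool order, with a mean of 1.05 ± 0.32 (SD, n = 6). The 6 treated tumors ran from 1.20 to 2.37 with a median of 1.44 and a mean of 1.59 ± 0.46 (SD, n = 6). All 6 treated tumors were above the control mean, but the groups overlapped. The log2 fold change was 0.68 (SE 0.22, adjusted p = 0.356, edgeR). The first isotype pool held the 3 lowest values, and the value rested on them: without that pool it was 0.30 (adjusted p = 0.910), and without the other isotype pool 1.09 (adjusted p = 0.00988). In each of the 4 macrophage-like clusters the pooled Cxcl14 level was higher in treated cells. These clusters shared the same tumors, the first isotype pool included, so they are not separate evidence. How often all 4 agree over all genes was not counted.

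Cxcl10 in macrophage-like cells ran from 0.188 to 2.26 UMIs per 10000 in isotype tumors (median 0.642) and from 0.0707 to 0.763 in treated tumors (median 0.384). All treated tumors were below the control mean of 0.910 ± 0.762 (SD, n = 6), but so were isotype tumors at 0.634, 0.649, 0.416 and 0.188. The log2 fold change was -1.15 (SE 0.45, adjusted p = 0.450, edgeR). It rested on the first isotype pool, whose mean was 1.40 against 0.418 in the second: without the first it was 0.13 (adjusted p = 0.995), and without the second -1.66 (adjusted p = 0.0143).

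Cxcl16 in macrophage-like cells was 6.16 ± 0.51 (SD, n = 6) UMIs per 10000 in isotype and 5.94 ± 0.76 (SD, n = 6) in treated tumors, with a log2 fold change of 0.01 (SE 0.13, adjusted p = 0.998, edgeR). Cxcl2 was 15.0 ± 4.9 (SD, n = 6) and 15.8 ± 9.8 (SD, n = 6), at 0.14 (SE 0.30, adjusted p = 0.926). Cxcl1 was 0.619 ± 0.385 (SD, n = 6) and 0.586 ± 0.300 (SD, n = 6), at -0.04 (SE 0.36, adjusted p = 0.994).

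**Figure D4:**
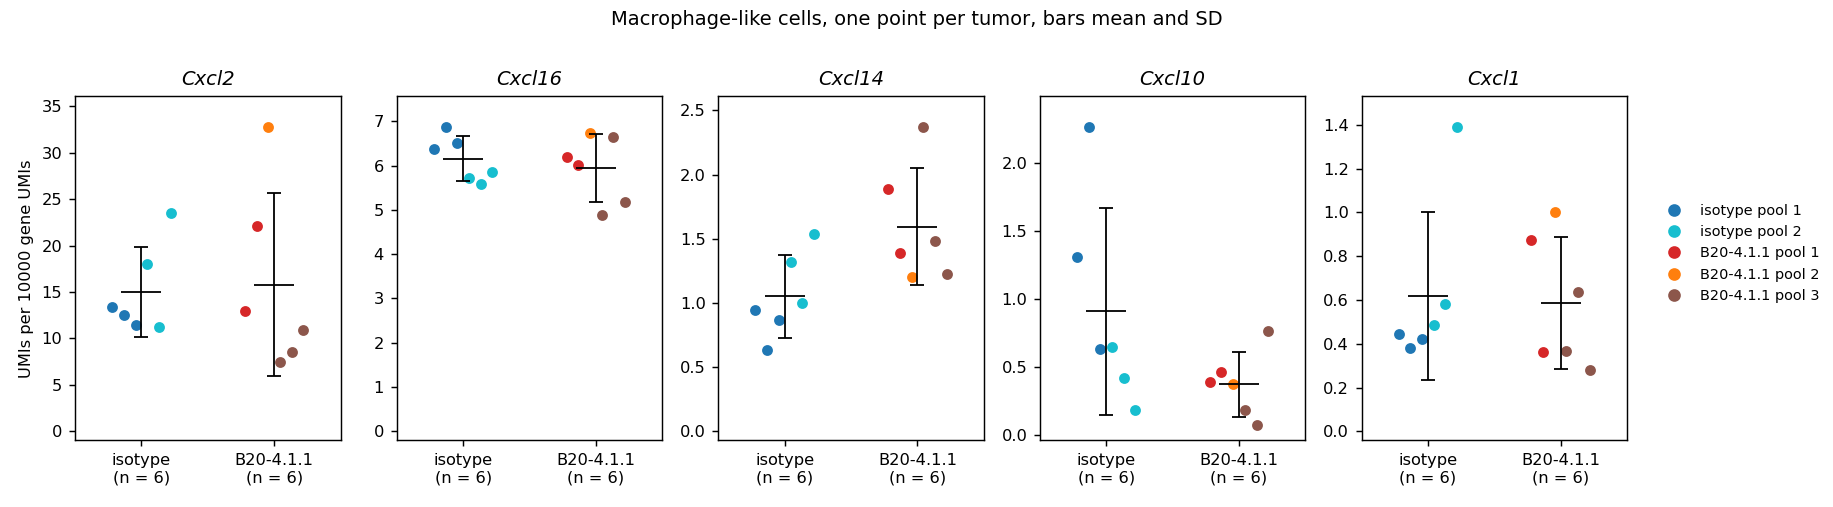
UMIs per 10000 gene UMIs in macrophage-like cells for Cxcl2, Cxcl16, Cxcl14, Cxcl10 and Cxcl1, 1 point per tumor, with bars for the group mean and SD (6 tumors each). The groups overlap for all 5 genes, and the highest Cxcl10 values are isotype tumors.

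The treated tumors had more macrophage-like cells in the cluster led by C1qb and C1qc than in any other of the 4, and the isotype tumors in the cluster led by Apoe, Ccl4 and Ccl3. The 8 monocyte markers summed to 2.90 to 3.87 UMIs per 10000 in isotype and 3.96 to 13.4 in treated macrophage-like cells, and 1 of 3 tested was called higher. The 8 neutrophil markers summed to 1.92 to 10.7 and 1.07 to 3.06, with 0 of 2 tested called. Their part in the Cxcl14 and Cxcl10 values was not tested.

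In T-like cells Cxcl10 was the only member that passed the filter, and it did not pass the test. It ran from 0 to 0.783 UMIs per 10000 in isotype tumors (median 0.193) and from 0.00660 to 1.59 in treated tumors (median 0.333), with a log2 fold change of 0.80 (SE 0.91, adjusted p = 0.720, edgeR). Of the 113 Cxcl10 UMIs of 1 treated tumor, 96 were in 1 cell. By the edgeR test 0.0446% of 6729 genes were called, beside 0 of 1 tested members, with 963 genes at an unadjusted p under 0.05 and 37 called by DESeq2. The other classes had too few tumors with 20 cells for a test.

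Whether treatment acted differently on the classes was tested as an interaction over 12 tumors with both. In this edgeR test 0.0506% of 11861 genes were called, beside 0 of 6 tested members, with 936 genes and 4 members at an unadjusted p under 0.05. Cxcl10 had the largest difference, macrophage-like minus epithelial-like, at -3.29 (SE 0.75, adjusted p = 0.141). The epithelial side of this rested on the third B20-4.1.1 pool, where 1 tumor held 255 Cxcl10 UMIs in 13 of 960 cells. Without that pool the difference was -1.09 (adjusted p = 0.728). The differences for Cxcl16 and Cxcl14 were -0.53 (SE 0.16, adjusted p = 0.274) and -1.15 (SE 0.43, adjusted p = 0.471), so a difference between the classes was not shown for either. The Cxcl14 difference depended on the isotype pools, at -2.22 (adjusted p = 0.00956) without the first and -0.26 (adjusted p = 0.921) without the second. Cxcl2 and Cxcl1 had 0.85 (SE 0.30, adjusted p = 0.398) and 0.54 (SE 0.27, adjusted p = 0.642), and Cxcl12, nearly absent from macrophage-like cells, -2.41 (SE 3.18, adjusted p = 0.899).

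**Figure D5:**
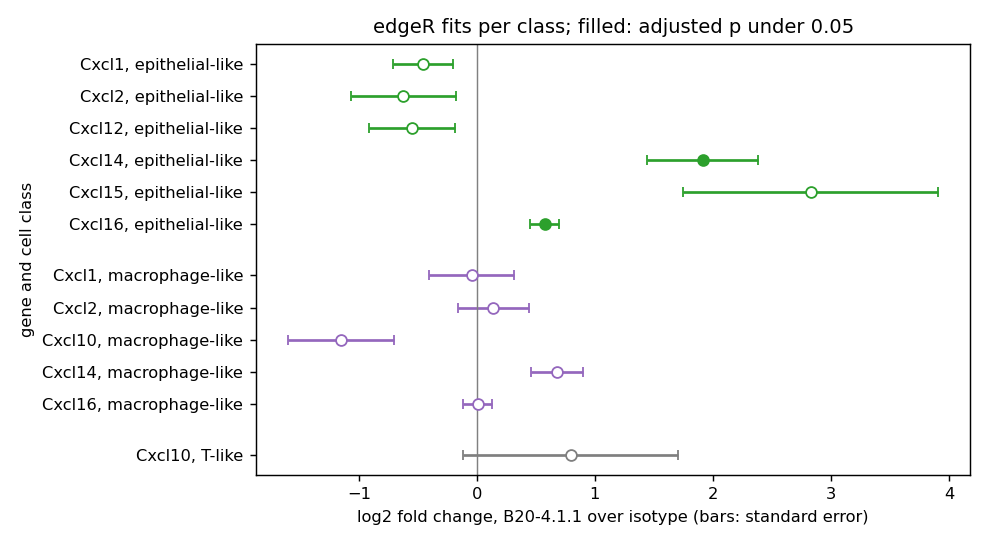
Fitted log2 fold change, B20-4.1.1 over isotype, with its standard error for each member tested in epithelial-like, macrophage-like and T-like cells; filled points have an edgeR adjusted p under 0.05. Cxcl16 and Cxcl14 in epithelial-like cells are the 2 filled points.

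The other genes of the pathway were counted in the same epithelial fit. In all, 8 of 45 tested genes of these lists were called, beside 15.3% of all genes. With counts summed per pool edgeR called 0 of 13966 genes, with 1399 at an unadjusted p under 0.05, so the 8 calls below were lost there. Of 10 CXC and atypical receptors 2 were tested, and Ackr3, which scavenges Cxcl12, was higher in treated tumors at 1.05 (log2; SE 0.19, adjusted p = 0.0025), whereas Cxcr4 had 0.03. Ackr3 was 0.0570 ± 0.0128 (SD, n = 6) UMIs per 10000 in isotype and 0.114 ± 0.039 (SD, n = 9) in treated tumors. Of 14 NF-kB pathway genes 12 were tested and 2 were lower, both feedback regulators: Nfkbiz at -0.68 (adjusted p = 0.0124) and Tnfaip3 at -0.70 (adjusted p = 0.0204). The median of that list was -0.17, beside -0.01 for all genes.

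Of 13 interferon-gamma pathway genes 11 were tested and 1 was higher, the receptor chain Ifngr1 at 0.47 (adjusted p = 0.0052). The list median was 0.16. Of 6 shedding and processing enzymes 4 were tested, and Adam17, a sheddase of Cxcl16, was lower at -0.34 (adjusted p = 0.0251). Among 15 immediate-early and stress genes, all tested, Ier2 was higher at 0.60 (adjusted p = 0.0479) and Fosb and Nr4a1 were lower at -0.67 and -0.48 (adjusted p = 0.0160 and 0.0273). The list median was 0.21. Of 5 further CXC ligands, Cxcl17 alone was tested, at 0.62 (adjusted p = 0.322). In macrophage-like cells 0 of 41 tested genes of these lists were called by edgeR and 6 had an unadjusted p under 0.05, and in T-like cells these counts were 0 of 43 and 7. None of the receptors tested there was called, with Cxcr4 at -0.10 in macrophage-like cells and Cxcr3, Cxcr4 and Cxcr6 at 0.36, 0.71 and -0.39 in T-like cells.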

How the data were processed

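Per the labels and file headers, the authors demultiplexed 3′ CellPlex libraries and deposited UMI counts per gene and cell (Cell Ranger, matrix header 6.1.2, mm10; the submitters' processing notes also name bcl2fastq and Seurat 4.3.0). Depth per tumor is given above. Cells were filtered as the study's methods state for UMIs. They were clustered with scikit-learn 1.9.0, igraph 0.11.9 and leidenalg 0.10.2 (2500 variable genes, 16 components, 20 neighbors, resolution 0.8). Clusters led by markers other than epithelial or T were clustered again together. Clusters were named from at least 4 detected markers of 1 class. Scrublet, run in scanpy 1.11.5, marked 61 cells (0.312%), too few to have worked, so doublets were not removed. Counts were summed per tumor and class (at least 20 cells; at least 4 tumors per group) and tested with edgeR 4.0.16 (TMM, filterByExpr, quasi-likelihood) in R 4.3.3, with limma 3.58.1 and DESeq2 1.42.0 as alternatives. All 10 members are described; other pathway genes were named where they passed the test or stood beside a member. On simulated counts the test recovered 64% (epithelial-like), 49.5% (macrophage-like) and 60% (T-like) of genes changed by a log2 of 1, over 12318, 6362 and 6733 genes. It recovered 100% of those changed by a log2 of 2. The simulation gave every gene the same dispersion and had no difference between pools. Only genes with a mean of at least 20 counts per tumor were changed. These shares therefore do not give the power for sparse members or with pools that differ. Members and lists were chosen with earlier results of these data known. Cxcl1, Cxcl2 and Cxcl3 are related in sequence, and how reads shared between them were counted was not examined. Positions are from GENCODE and promoters from RefSeq. The labels name 1 mouse per tumor.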

Additional observations from a re-analysis of the deposited data

Results flagged for a closer look

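A far value was sought in 30 groups of tumors, over members with at least 100 UMIs in the class. Of these, 7 had a value far from the rest of the group by Dixon's ratio, the gap to the next value over the range. Its threshold gives about 1 in 20 groups for normally distributed values. Sparse levels set by few cells need not follow that, and the groups share tumors, so 7 was not compared with that rate. Values are UMIs per 10000. In epithelial-like cells Cxcl10 was 0.317 in the third tumor of the third B20-4.1.1 pool against 0.0154 in the next, with 174 of its 255 UMIs in 1 cell. Cxcl5 was 0.0759 in the first tumor of the second B20-4.1.1 pool, on 82 cells, against 0.0149 in the next. Cxcl14 was 0.0491 in the third tumor of the first isotype pool against 0.0117 in the next. Cxcl16 was lowest, at 0.151, in the third tumor of the second isotype pool, where the next was 0.210. That tumor was also highest for Cxcl1 in macrophage-like cells, at 1.39 against 0.583. In T-like cells Cxcl2 was 0.288 in the third tumor of the first isotype pool against 0.0981. It was 1.41 in the second tumor of the first B20-4.1.1 pool against 0.162, with 88 of its 94 UMIs in 1 cell.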

How the results depend on the processing

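No paired analysis was possible because each pool held 1 treatment and replicate numbers only name pools. For single members, 208 alternatives kept direction and side of the threshold, 9 lost a call, 11 gained one and 18 changed sign; the cause was not tested. In epithelial-like cells the count of members called, 2, became 1 with thinned cells, 0 with pool as a random block, 0 with sums per pool and 1 with unnamed clusters added, and ran from 1 to 2 with single pools left out. In macrophage-like cells it went from 0 to 1 without a filter on low counts and ran from 0 to 2 with single pools left out; in T-like cells it stayed at 0 (0 to 0). For the interaction it went from 0 to 1 with thinned cells and to 3 without a filter, and ran from 0 to 1. Sign changes (log2) were Cxcl12 in epithelial-like cells at 0.13 without isotype pool 1; in macrophage-like cells Cxcl1 at 0.012 with a marker gate per cell, 0.23 with unnamed clusters added, 0.30 without B20-4.1.1 pool 3 and 0.58 without isotype pool 2, Cxcl2 at -0.23 without B20-4.1.1 pool 2 and -0.13 without isotype pool 1, Cxcl10 at 0.13 without isotype pool 1, and Cxcl16 at -0.12 with thinned cells, -0.0097 without a filter, -0.0081 without Scrublet calls, -0.015 with unnamed clusters added, and -0.0022, -0.051 and -0.044 without B20-4.1.1 pool 1, B20-4.1.1 pool 2 and isotype pool 2; and in T-like cells Cxcl10 at -1.24 with the gate, -1.16 with the block and -0.82 with unnamed clusters added. With single pools left out, the macrophage values ran from -0.61 to 0.58 for Cxcl1, -0.23 to 0.67 for Cxcl2, -1.66 to 0.13 for Cxcl10 and -0.051 to 0.11 for Cxcl16. Cxcl12 in epithelial-like cells was called at -1.004 without isotype pool 2 (edgeR adjusted p = 0.0162). Over all genes, the 1883 epithelial calls became 429 without isotype pool 1, 5585 without isotype pool 2, 1192 without B20-4.1.1 pool 3, 1063 without B20-4.1.1 pool 2, 1024 thinned, 44 with the block and 0 with sums per pool (1399 at an unadjusted p under 0.05). The macrophage count of 1 became 633 without isotype pool 2, 51 without a filter and 11 by DESeq2, and the T count of 3 became 344 without B20-4.1.1 pool 3, 40 without isotype pool 2 and 37 by DESeq2. Leaving out the T-rich tumors was chosen after seeing the data. Other classes gave no test under any alternative.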

Other observations

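Members were also read in the same cells, after thinning to 2500 UMIs. Of 75 macrophage-like cells with Cxcl1, 66 (88.0%) also held Cxcl2, which was in 42.9% of all macrophage-like cells. Of 86 with Cxcl10, 62 (72.1%) held Cxcl2. Cxcl14 did not follow this: 99 of 255 cells with Cxcl14 (38.8%) held Cxcl2. Of 328 epithelial-like cells with Cxcl2, 67 (20.4%) held Cxcl1, which was in 5.62% of all, and of 75 with Cxcl14, 9 (12.0%) held Cxcl16, which was in 5.95%. No epithelial-like cell held both Cxcl12 and Cxcl14 at this depth. These are counts over cells pooled from all tumors, with no test.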
